A study of Neurospora crassa OR74A with 3 samples.

Results

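The 6 genes described here encode actin, the tubulins, a translation elongation factor and the plasma membrane proton pump of the mould Neurospora crassa, which grows as branching hyphae and lives on plant material. They were chosen by locus from the read-count tables and carry these symbols in the RefSeq annotation of assembly NC12: act (NCU04173, actin), Bml (NCU04054, β-tubulin, also called tub-2), tba-1 (NCU09132) and tba-2 (NCU09468) for the α-tubulins, tef-1 (NCU02003) and pma-1 (NCU01680). They are 6 of the 9730 genes in the tables, and all 6 passed the filter of a mean of at least 10 CPM (reads of a gene scaled to a common number of gene reads per library) over the 3 libraries. RNA sequencing gave 1 library of mycelial messenger RNA for each of Δ3βGΔcdt2Δclp1, Δ3βGΔclp1 and their parent Δ3βG. All 3 strains carry deletions of 3 β-glucosidase genes, whose products cleave cellobiose to glucose. Δ3βGΔcdt2Δclp1 (labelled Δ3βGΔcdt2Δncu05853) is further deleted for cdt-2, a transporter of cellodextrins, and for clp1, whose product is similar to such transporters. In Δ3βGΔclp1 (labelled Δ3βGΔncu05853) only clp1 is missing beside the β-glucosidase genes. Every strain spent 16 h in sucrose medium and then 4 h in 2% cellobiose. The labels describe no replicate cultures. Differences below were therefore not checked against replicates, p-values are not given, and each 95% interval covers counting error only.

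Actin filaments carry secretory vesicles to the growing hyphal tip, and microtubules, built from dimers of α- and β-tubulin, serve long-range transport and nuclear movement. The product of tef-1 is elongation factor 1-alpha, which brings aminoacyl-tRNA to the ribosome and is among the most abundant proteins of a growing cell. The product of pma-1 is a P-type ATPase that pumps protons out of the hypha and so powers the uptake of sugars and ions. Genes of these classes are widely used as internal standards, on the assumption that their messenger RNA is at a like level in the samples compared.

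Reads assigned to genes numbered 9808610 in Δ3βGΔcdt2Δclp1, 9465639 in Δ3βGΔclp1 and 8586155 in Δ3βG. The labels were checked on the deleted transporter genes: clp1 had 0, 2 and 4190 reads in the libraries in that order, and cdt-2 had 9, 2842 and 1907. The hydrophobin gene eas took 0.305% of gene reads in Δ3βGΔcdt2Δclp1, 20.0% in Δ3βGΔclp1 and 18.7% in Δ3βG, and the cellobiohydrolase gene cbh-1 took 6.50%, 0.00763% and 0.00571%. These shifts bear on any scaling by totals. Levels below were scaled by TMM (trimmed mean of M-values), a factor per library that sets the bulk of genes level, and "per kb" means divided by exon length in kilobases. Of the 4 conidial genes con-6, con-8, con-10 and con-13, which mark the other cells such a culture could hold, none was at 0 in any library. Their summed level was 1284 CPM (TMM) in Δ3βGΔcdt2Δclp1, 777 in Δ3βGΔclp1 and 1052 in Δ3βG. The sum is mostly con-8, at 1101, 469 and 582 CPM in the same libraries, and the 4 genes did not move alike. con-10 stood at 100.1 CPM in Δ3βGΔcdt2Δclp1, 44.6 in Δ3βGΔclp1 and 73.1 in Δ3βG. con-6 and con-13 were lowest in Δ3βGΔcdt2Δclp1, with 80.5, 158 and 232 CPM for con-6 and 2.69, 105 and 165 CPM for con-13. The hydrophobin gene eas was also planned as a conidial marker and was left out of the sum. It stood at 3659 CPM (TMM) in Δ3βGΔcdt2Δclp1, 183803 in Δ3βGΔclp1 and 169219 in Δ3βG, so a sum with eas would be lowest in Δ3βGΔcdt2Δclp1. The part of these markers in the results below was not tested.

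The level of tef-1 was highest in Δ3βGΔcdt2Δclp1 and that of pma-1 was lowest there, while act and the 3 tubulin genes lay within 2-fold of Δ3βG. In Δ3βGΔclp1 all 6 genes lay within 2-fold of their Δ3βG level, the widest being tef-1 at 1.28-fold higher. On library totals the higher tef-1 share in Δ3βGΔcdt2Δclp1 than in Δ3βG was offset in the sum by lower shares of the others. Most of this came from pma-1, and the rest from the 3 tubulin genes and, slightly, act. The 6 genes together took 1.18% of gene reads in Δ3βGΔcdt2Δclp1, 1.24% in Δ3βGΔclp1 and 1.18% in Δ3βG. Under TMM the sum would be higher in Δ3βGΔcdt2Δclp1 than in Δ3βG, and on totals without eas it would be lower. In bulk mycelium, fewer cells of a kind and less RNA per cell cannot be told apart. All 6 were abundant genes, and the least abundant of them, tba-2 in Δ3βGΔcdt2Δclp1, still had 2043 reads.

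**Figure D1:**
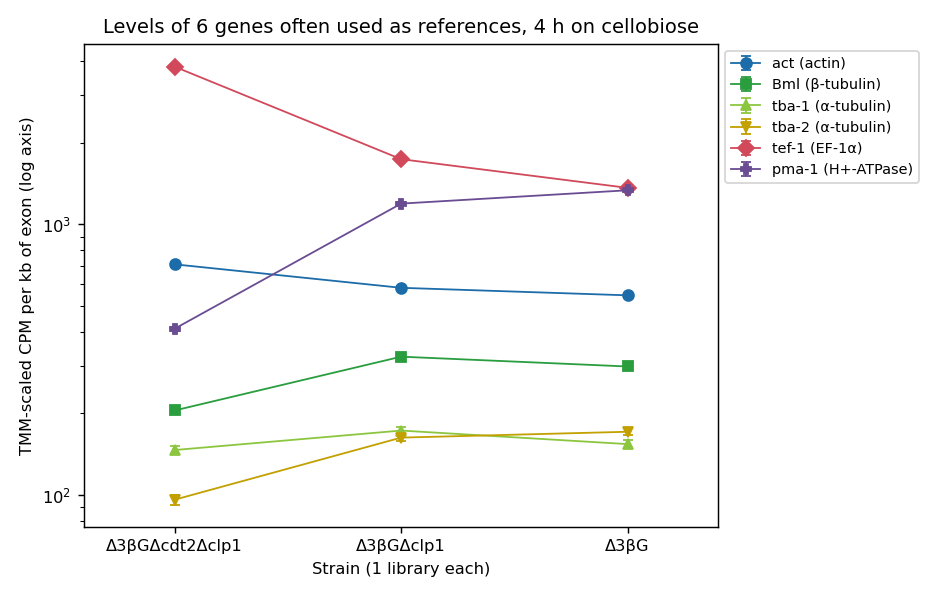
Level of each of the 6 genes (vertical axis, TMM-scaled CPM per kb of exon, log axis) in the single library of each strain (horizontal axis), with lines joining the 3 libraries and bars for the 95% Poisson counting interval. tef-1 stands at 3817 in Δ3βGΔcdt2Δclp1 against 1362 in Δ3βG, pma-1 at 411 against 1335, and act, Bml and the α-tubulins move less.

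tef-1 had 84961 reads in Δ3βGΔcdt2Δclp1, 48828 in Δ3βGΔclp1 and 35114 in Δ3βG. Per kb, its TMM-scaled level was 3817 CPM in Δ3βGΔcdt2Δclp1, 1739 CPM in Δ3βGΔclp1 and 1362 CPM in Δ3βG. The 3 libraries thus had 3 distinct levels, with counting intervals that did not overlap. tef-1 was 2.80-fold higher in Δ3βGΔcdt2Δclp1 than in Δ3βG (95% counting interval 2.77 to 2.84) and 2.20-fold higher than in Δ3βGΔclp1 (2.17 to 2.22). Between Δ3βGΔclp1 and Δ3βG the ratio was 1.28 (1.26 to 1.29). Its share of gene reads was 0.866%, 0.516% and 0.409% in Δ3βGΔcdt2Δclp1, Δ3βGΔclp1 and Δ3βG. Ranked by the authors' deposited RPKM within each library, a position that no scaling can move, tef-1 was 17th in Δ3βGΔcdt2Δclp1, 11th in Δ3βGΔclp1 and 13th in Δ3βG. Its place near the top was therefore kept although its level differed.

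pma-1 had 11358 reads in Δ3βGΔcdt2Δclp1, 41519 in Δ3βGΔclp1 and 42687 in Δ3βG. Its level per kb was 411 CPM in Δ3βGΔcdt2Δclp1, 1192 CPM in Δ3βGΔclp1 and 1335 CPM in Δ3βG. The strain lacking cdt-2 and clp1 stood apart from the other two. In that strain pma-1 was 3.25-fold lower than in Δ3βG (3.18 to 3.31) and 2.90-fold lower than in Δ3βGΔclp1 (2.84 to 2.96). Δ3βGΔclp1 was 1.12-fold lower than Δ3βG (1.10 to 1.14). By deposited RPKM the pump gene ranked 192nd in Δ3βGΔcdt2Δclp1, 18th in Δ3βGΔclp1 and 15th in Δ3βG. In Δ3βG it stood just under tef-1 per kb, with counting intervals that nearly met (1322 to 1347 CPM for pma-1, 1348 to 1377 CPM for tef-1), and in Δ3βGΔcdt2Δclp1 it stood below act.

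act had 10863 reads in Δ3βGΔcdt2Δclp1, 11224 in Δ3βGΔclp1 and 9664 in Δ3βG. Per kb these were 711 CPM, 582 CPM and 546 CPM in the same libraries. The actin level was 1.30-fold higher in Δ3βGΔcdt2Δclp1 than in Δ3βG under TMM (1.27 to 1.34), 1.22-fold higher than in Δ3βGΔclp1 (1.19 to 1.25), and 1.07-fold higher in Δ3βGΔclp1 than in Δ3βG (1.04 to 1.10). On library totals the ratio of Δ3βGΔcdt2Δclp1 to Δ3βG was 0.984, with an interval that included 1 (0.957 to 1.01). By deposited RPKM act ranked 107th, 58th and 59th in Δ3βGΔcdt2Δclp1, Δ3βGΔclp1 and Δ3βG.

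The β-tubulin gene Bml had 3475 reads in Δ3βGΔcdt2Δclp1, 6927 in Δ3βGΔclp1 and 5849 in Δ3βG, or 205, 324 and 298 CPM per kb. It was 1.45-fold lower in Δ3βGΔcdt2Δclp1 than in Δ3βG (1.39 to 1.52) and 1.58-fold lower than in Δ3βGΔclp1 (1.52 to 1.65). The ratio of Δ3βGΔclp1 to Δ3βG was 1.09 (1.05 to 1.13). β-tubulin was thus lowest in the library with both transporter-family genes deleted, by less than 2-fold. Its rank by deposited RPKM was 393rd in Δ3βGΔcdt2Δclp1, 117th in Δ3βGΔclp1 and 132nd in Δ3βG.

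The α-tubulin genes did not move alike. tba-1 had 2929 reads in Δ3βGΔcdt2Δclp1, 4360 in Δ3βGΔclp1 and 3567 in Δ3βG, and tba-2 had 2043, 4370 and 4216. tba-1 was 1.05-fold lower in Δ3βGΔcdt2Δclp1 than in Δ3βG (1.001 to 1.105), whereas tba-2 was 1.78-fold lower (1.69 to 1.88). The ratios of Δ3βGΔclp1 to Δ3βG were 1.12 for tba-1 (1.07 to 1.17) and 0.951 for tba-2 (0.912 to 0.993). Of all α-tubulin reads, tba-1 gave 58.9% in Δ3βGΔcdt2Δclp1 (exact binomial interval 57.5 to 60.3), 49.9% in Δ3βGΔclp1 (48.9 to 51.0) and 45.8% in Δ3βG (44.7 to 46.9). Per kb, tba-1 was above tba-2 in Δ3βGΔcdt2Δclp1 (147 against 96.0 CPM), the order was reversed in Δ3βG (154 against 171 CPM), and in Δ3βGΔclp1 their intervals nearly met (168 to 178 CPM for tba-1, 158 to 168 CPM for tba-2). The sum of the α-tubulins per kb stayed close to β-tubulin, at 1.18 times Bml in Δ3βGΔcdt2Δclp1, 1.04 times in Δ3βGΔclp1 and 1.09 times in Δ3βG. Reads that align to several places were left out of the counts, so stretches that the α-tubulin genes share may be counted too low in both.

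Among all genes, wide differences were common in one comparison and rare in the other. In Δ3βGΔcdt2Δclp1 against Δ3βG, 2 of the 6 genes were at least 2-fold apart, 1 higher (tef-1) and 1 lower (pma-1), where 34.8% of the 6545 genes compared were at least 2-fold apart. The share of 2 in 6 is near that background. The median log2 ratio of the 6 genes was -0.31, and that of all genes was -0.03. tef-1 had a higher ratio than 87.4% of genes and pma-1 than 6.31%, while act (64.9%), tba-1 (48.3%), Bml (29.4%) and tba-2 (19.6%) lay nearer the middle. Of the 480 genes averaging 300 CPM or more, the abundance range of the 6, 51.7% were at least 2-fold apart, 167 of them higher and 81 lower. In Δ3βGΔclp1 against Δ3βG, 0 of the 6 and 1.24% of all genes were at least 2-fold apart. The 6 genes had a median of 0.11 there against 0.00 for all genes, and their log2 ratios ran between -0.16 (pma-1) and 0.35 (tef-1). The spread of all genes was narrow, with quartiles of -0.16 and 0.19. tef-1 had a higher ratio than 88.6% of genes, tba-1 than 72.7%, Bml than 67.1% and act than 63.4%. For tba-2 the share was 37.9% and for pma-1 24.3%. Both comparisons use the same Δ3βG library. In Δ3βGΔcdt2Δclp1 against Δ3βGΔclp1, 2 of the 6 (tef-1 higher, pma-1 lower) and 28.5% of all genes were at least 2-fold apart.

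**Figure D2:**
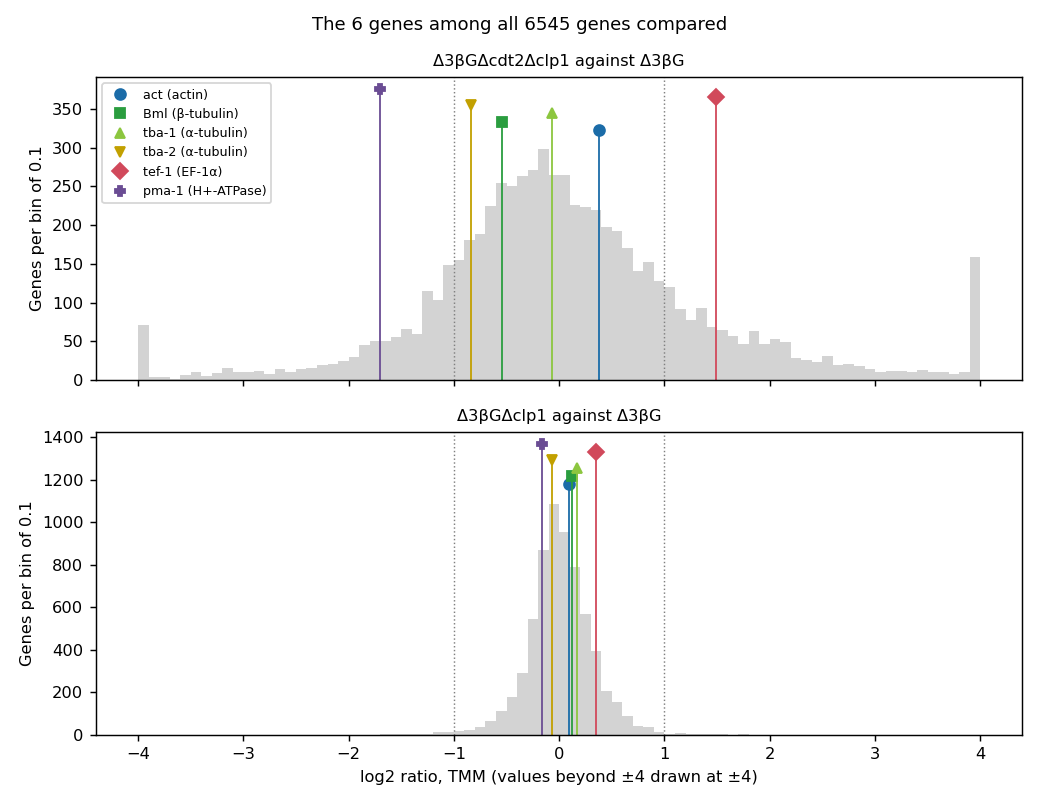
Log2 ratios under TMM of the 6545 genes compared (grey histogram, genes per bin of 0.1, values beyond ±4 drawn at ±4), with the 6 genes as coloured lines and dotted lines at 2-fold, for Δ3βGΔcdt2Δclp1 (above) and Δ3βGΔclp1 (below) against Δ3βG. In the upper panel tef-1 at 1.49 and pma-1 at -1.70 lie beyond 2-fold and the other 4 genes within it, and in the lower panel all 6 lie between -0.16 and 0.35.

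How far each gene appeared to move in Δ3βGΔcdt2Δclp1 depended on the scaling, while the order of the 6 and the distances between them did not. A total of 8 scalings that use none of the 6 alone were set side by side: TMM, library totals, median of ratios, upper quartile, all reads in the file, and totals without eas, without the 50 genes with most counts, or without both. The last 2 coincide, since eas is one of the 50. Against Δ3βG, pma-1 was lower under all 8, by 3.25-fold (TMM) to 5.26-fold (totals without eas). tef-1 was higher under all 8, by 2.80-fold to 1.73-fold under the same scalings, and so fell short of 2-fold on totals without eas. Bml and tba-2 were lower under all 8, with log2 ratios between -1.24 and -0.54 for Bml and between -1.53 and -0.83 for tba-2. tba-1 ran between -0.77 and -0.07.

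Under these 8 scalings, act was the 1 gene of the 6 whose direction turned in Δ3βGΔcdt2Δclp1 against Δ3βG. Its log2 ratio was 0.38 under TMM, 0.11 on all reads in the file, -0.02 on library totals and -0.32 on totals without eas, above 0 in 6 of the 8. The median of all genes moved with the scaling by -0.40 on library totals and by -0.70 on totals without eas, relative to TMM, on the log2 scale. On library totals 3 of the 6 genes were at least 2-fold apart (tef-1, tba-2 and pma-1), against 40.4% of all genes. On totals without eas 3 were (Bml, tba-2 and pma-1), against 49.1% of all genes. Between Δ3βGΔclp1 and Δ3βG, no scaling of the 8 moved a gene across 0 or past 2-fold. In that comparison act stayed between 0.08 and 0.12, tba-1 between 0.15 and 0.19, tef-1 between 0.33 and 0.38 and pma-1 between -0.18 and -0.14.

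Between Δ3βGΔcdt2Δclp1 and Δ3βGΔclp1 the scaling decided more. act was above 0 under 3 of the 8 scalings and below 0 under 5, 2 of which coincide. Its ratio was 1.22 under TMM, 0.934 on library totals and 0.749 on totals without eas. On all reads in the file its ratio was 0.996, with an interval that included 1 (0.970 to 1.02). tef-1 was higher under all 8 but past 2-fold under 3, with a ratio of 2.20 under TMM, 1.68 on library totals and 1.35 on totals without eas. Bml and tba-2, lower under all 8, were past 2-fold under 4 and 5 of them, in each case counting the 2 that coincide. On library totals they were 2.07-fold and 2.22-fold lower. pma-1 was at least 2-fold lower under all 8. Of all genes, 11.9% were at least 2-fold lower under TMM, 23.5% on library totals and 37.5% on totals without eas. Under TMM 16.5% were at least 2-fold higher. The median log2 ratio of all genes was -0.04 under TMM, -0.42 on library totals and -0.74 on totals without eas.

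**Figure D3:**
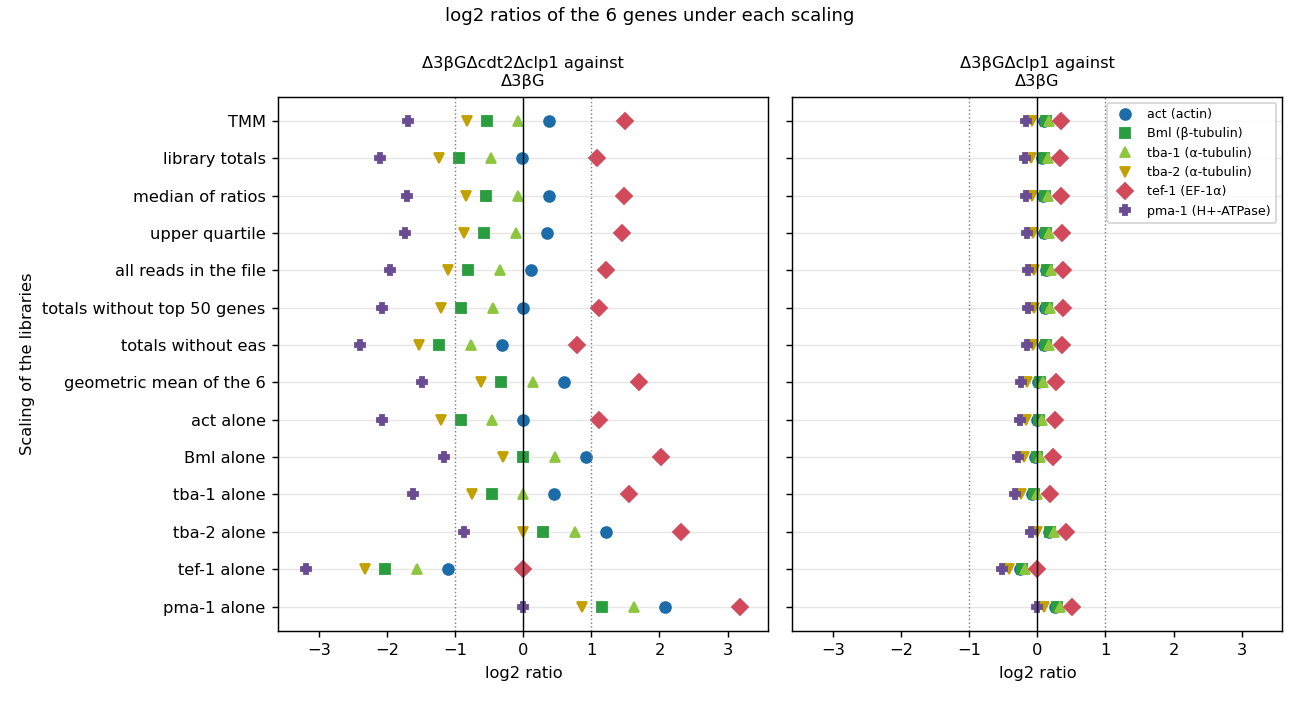
Log2 ratios (horizontal axis) of the 6 genes under each scaling of the libraries (rows), for Δ3βGΔcdt2Δclp1 (left) and Δ3βGΔclp1 (right) against Δ3βG, with dotted lines at 2-fold. Rows slide as a block: tef-1 and pma-1 stay 3.18 apart on the left and 0.52 apart on the right in every row.

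The ratio of one gene's reads to another's within a library is free of any scaling, and 15 such pairs can be made from the 6 genes. Between Δ3βGΔcdt2Δclp1 and Δ3βG, 9 of the 15 ratios differed by at least 2-fold and 4 by at least 4-fold, with a median difference of 2.23-fold. The pairs share the same 6 genes, and of the 9 only act to tba-2 involves neither tef-1 nor pma-1. No share over pairs of other genes was computed in any comparison. For all genes the quartiles of the log2 ratio under TMM were -0.66 and 0.73 here, so wide changes between genes were common. The widest of the 15 ratios was tef-1 to pma-1. Their reads stood at 7.48 to 1 in Δ3βGΔcdt2Δclp1, 1.18 to 1 in Δ3βGΔclp1 and 0.823 to 1 in Δ3βG, a 9.09-fold change between Δ3βGΔcdt2Δclp1 and Δ3βG (exact 95% interval 8.88 to 9.32). The ratio of act to pma-1 was 4.22-fold higher (4.08 to 4.37) in Δ3βGΔcdt2Δclp1 than in Δ3βG. The ratio of tef-1 to Bml was 4.07-fold higher (3.90 to 4.26), and that of tef-1 to tba-2 was 4.99-fold higher (4.73 to 5.27).

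The steadiest pair between these libraries was Bml and tba-2, whose ratio was 1.23-fold higher in Δ3βGΔcdt2Δclp1 than in Δ3βG (1.15 to 1.31). The same pair differed by 1.07-fold between Δ3βGΔcdt2Δclp1 and Δ3βGΔclp1 (1.004 to 1.148). Next came act and tba-1 at 1.37-fold (1.29 to 1.45). act and Bml, a common pair of standards, moved apart by 1.89-fold (1.80 to 1.99). No pair had an interval that held 1 in this comparison. Between Δ3βGΔclp1 and Δ3βG, 0 of the 15 ratios differed by 2-fold, the widest again being tef-1 to pma-1 at 1.43-fold (1.40 to 1.46). For act with Bml, act with tba-1 and Bml with tba-1, the interval held 1. Between Δ3βGΔcdt2Δclp1 and Δ3βGΔclp1, 7 of 15 differed by at least 2-fold, with tef-1 to pma-1 at 6.36-fold.

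**Figure D4:**
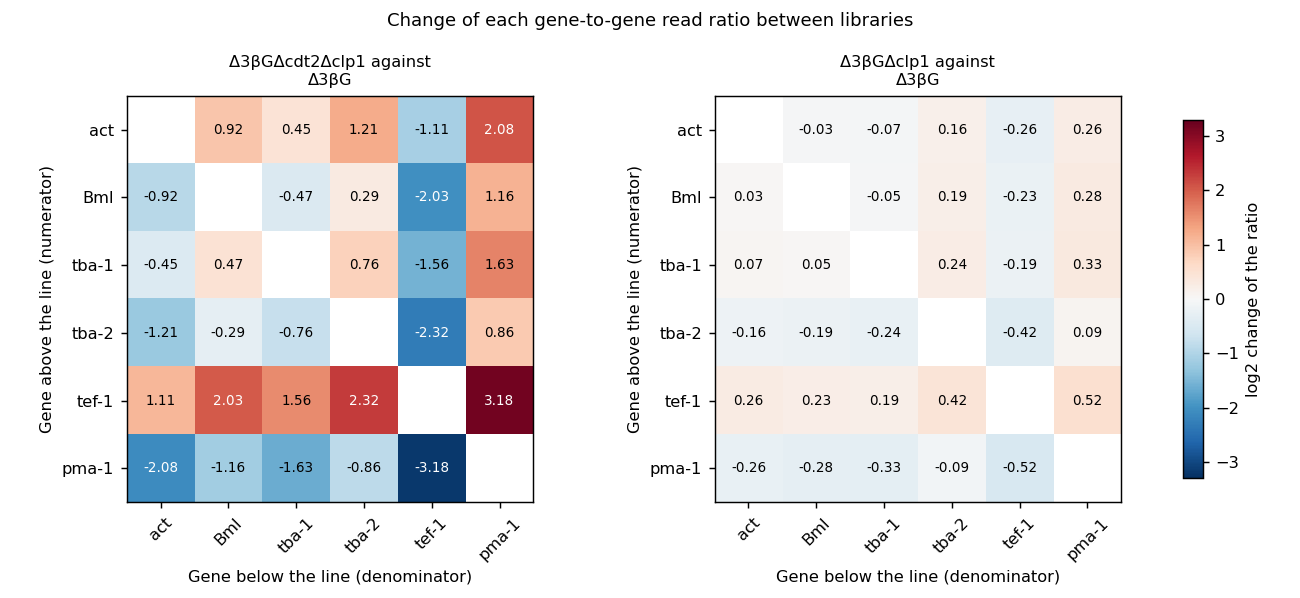
Log2 change of the read ratio of the row gene to the column gene, in Δ3βGΔcdt2Δclp1 (left) and Δ3βGΔclp1 (right) against Δ3βG; red is higher and blue lower in the strain with the added deletion. On the left the tef-1 row and the pma-1 row hold the strongest colours, up to 3.18 for tef-1 over pma-1, and on the right no cell passes 0.52.

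Each of the 6 genes, used alone as the standard, gave a different account of the same libraries. With TMM, 1267 of 6545 genes were at least 2-fold higher in Δ3βGΔcdt2Δclp1 than in Δ3βG and 1008 lower. With tef-1 alone 364 were higher and 4467 lower, and with pma-1 alone 4998 were higher and 168 lower. act alone gave 899 higher and 1716 lower, close to the 882 and 1765 of library totals. Bml gave 2125 and 494, and tba-2 gave 2755 and 348. tba-1 alone, with 1358 and 906, came closest to TMM among the 6, and the geometric mean of the 6 gave 1561 and 738. The 6 genes themselves followed these standards, except that the gene used as the standard is fixed at a ratio of 1 and cannot be apart. With tef-1 alone 5 of the 6 were at least 2-fold apart, against 73.8% of all genes, and with pma-1 alone 4 were, against 78.9%. For Δ3βGΔcdt2Δclp1 against Δ3βGΔclp1, 1 of the 6 was apart with Bml alone, against 38.5% of all genes, and 4 with tef-1 alone, against 63.7%. Higher genes made up 55.7% of the genes apart under TMM, 7.53% under tef-1 and 96.7% under pma-1. For Δ3βGΔclp1 against Δ3βG, where TMM gave 37 higher and 44 lower, the single standards gave between 17 (tef-1) and 75 (pma-1) higher and between 23 (pma-1) and 149 (tef-1) lower.

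**Figure D5:**
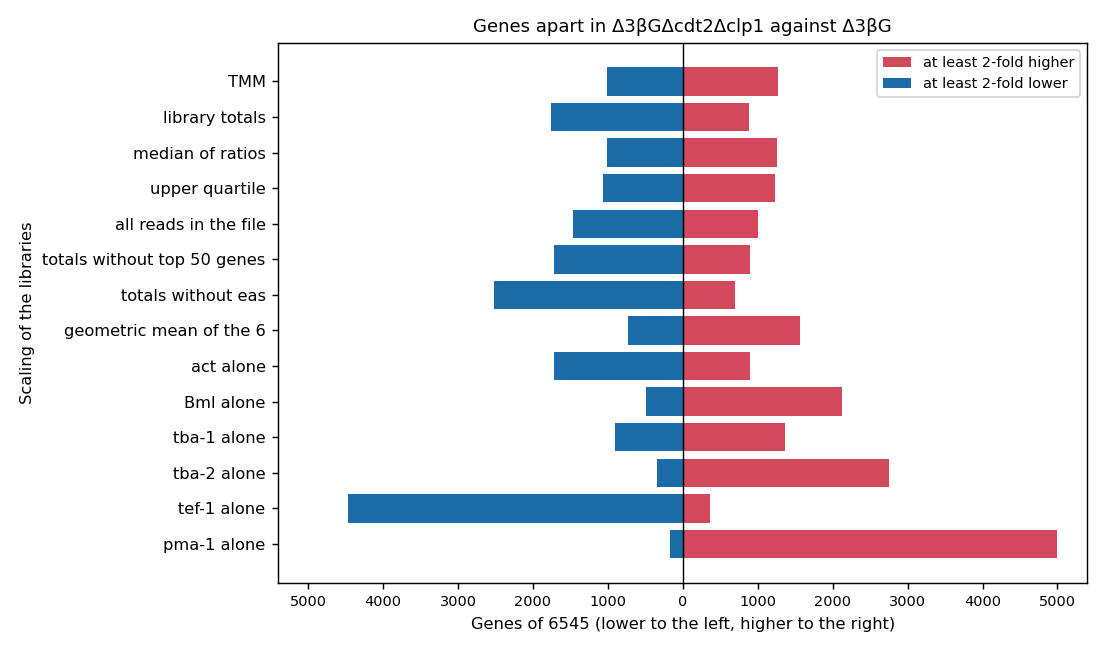
Number of genes of 6545 at least 2-fold higher (red, to the right) or lower (blue, to the left) in Δ3βGΔcdt2Δclp1 against Δ3βG, under each scaling of the libraries (rows). tef-1 alone gives 364 higher and 4467 lower, pma-1 alone 4998 and 168, and tba-1 alone, with 1358 and 906, is the single standard nearest to TMM.

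The same held for single genes outside the 6. For cbh-1 (NCU07340), the cellobiohydrolase gene, the reads numbered 637941 in Δ3βGΔcdt2Δclp1 and 490 in Δ3βG. Relative to act its ratio was 1158-fold higher (1055 to 1273), relative to tef-1 538-fold (492 to 589.6) and relative to pma-1 4893-fold (4467 to 5369). The cellodextrin transporter gene cdt-1 (NCU00801) was between 33.0-fold (tef-1) and 300.4-fold (pma-1) higher, and eas (NCU08457) between 129.6-fold (tef-1) and 14.2-fold (pma-1) lower. For these genes no choice among the 6 turned the direction. Where the difference was small, it could. Between Δ3βGΔclp1 and Δ3βG, cbh-1 relative to tef-1 had a ratio of 1.06 with an interval that included 1 (0.943 to 1.19), and relative to pma-1 one of 1.51 (1.35 to 1.70). eas was at 0.851 relative to tef-1 (0.839 to 0.863), at 1.22 relative to pma-1 (1.20 to 1.23) and at 1.02 relative to act (0.991 to 1.05).

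Other genes of the same processes were taken from 3 lists of RefSeq symbols, without the 6, and every listed gene found passed 10 CPM. Of the translation factors, 3 had a symbol, and all 3 had ratios above 0 in Δ3βGΔcdt2Δclp1 against Δ3βG, with 2 at least 2-fold higher, where 19.4% of all genes were. cot-3 (NCU07700), elongation factor 2, had 38512 reads in Δ3βGΔcdt2Δclp1, 22033 in Δ3βGΔclp1 and 16630 in Δ3βG, and was 2.68-fold higher in Δ3βGΔcdt2Δclp1 than in Δ3βG (2.63 to 2.73). It thus followed the order of tef-1 over the 3 libraries. eif5A (NCU05274) was 2.36-fold higher (2.28 to 2.43) and un-10 (NCU02208), a subunit of initiation factor 3, 1.94-fold (1.76 to 2.14). The list's median log2 ratio was 1.24 under TMM, 0.83 on library totals and 0.54 on totals without eas, where 0 of the 3 and 10.6% of all genes were at least 2-fold higher.

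The cytoskeleton list held 18 further genes, among them actin-related proteins, tropomyosin, fimbrin, formin, γ-tubulin, dynein and dynactin subunits and kinesins. In Δ3βGΔcdt2Δclp1 against Δ3βG their median log2 ratio was -0.30, with 6 above 0 and 12 below. None was at least 2-fold higher and 2 were at least 2-fold lower, where 15.4% of all genes were lower by that much. The kinesin gene kin-3 (NCU03715) was 2.88-fold lower (2.48 to 3.37) and ro-10 (NCU10696), named for its ropy hyphae mutant, 2.12-fold lower (1.64 to 2.76). On totals without eas 8 of the 18 were at least 2-fold lower, against 38.4% of all genes. γ-tubulin, tbg (NCU03954), had a log2 ratio of -0.21 and tropomyosin, tpm (NCU01204), one of 0.01. The median in Δ3βGΔclp1 against Δ3βG was 0.02, and 0 of the 18 were at least 2-fold apart, where 1.24% of all genes were.

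The list of pumps held 20 genes beside pma-1, with a median log2 ratio of 0.29 in Δ3βGΔcdt2Δclp1 against Δ3βG, 11 above 0 and 9 below. Of the 20, 3 were at least 2-fold higher, where 19.4% of all genes were, and 1 was at least 2-fold lower, where 15.4% of all genes were. The sodium P-type ATPase gene ena-1 (NCU05046) was 3.37-fold higher (3.20 to 3.54), with 5810 reads in Δ3βGΔcdt2Δclp1, 2457 in Δ3βGΔclp1 and 1999 in Δ3βG. vma-13 (NCU02746) and vma-7 (NCU04387), subunits of the vacuolar proton pump, were 2.34-fold (2.14 to 2.55) and 2.03-fold (1.78 to 2.32) higher. The calcium ATPase gene nca-3 (NCU05154) was 2.14-fold lower (1.81 to 2.54). The sign of the list's median turned with the scaling, as the place of 0 moved for all genes. The median of all genes was -0.03 under TMM, -0.44 on library totals and -0.73 on totals without eas. Shares of all genes below 0 were not computed. On library totals the median of the 20 was -0.11, with 11 below 0. On totals without eas it was -0.40, with 13 below 0, 1 at least 2-fold higher (10.6% of all genes) and 6 at least 2-fold lower (38.4% of all genes). In Δ3βGΔclp1 against Δ3βG, 0 genes of the translation and pump lists were at least 2-fold apart, where 1.24% of all genes were.

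Likeness of pattern was measured as the distance over the log2 ratios of both strains against Δ3βG, among 2034 other genes averaging 100 CPM or more. With only 3 libraries a close pattern is common: between 11 genes (tef-1 and pma-1 each) and 45 genes (tba-1) lay within 0.1. Nearest to act were NCU01879 and NCU01122, and nearest to Bml were ypt-1 (NCU08477) and NCU01766. For tba-1 they were NCU02464 and NCU05404, and for tba-2 NCU03603 and NCU06404. NCU16635 and NCU09108 came nearest to tef-1, with log2 ratios of 1.51 and 1.53 against its 1.49 in Δ3βGΔcdt2Δclp1. NCU06198 and NCU09301 came nearest to pma-1, at -1.71 and -1.73 against its -1.70.

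The genes beside the 6 on the chromosome, in the RefSeq order of NC12, gave a check of whether a whole stretch moved. Of these 12 neighbours 9 had at least 10 CPM, and 2 of the 9 were at least 2-fold apart in Δ3βGΔcdt2Δclp1 against Δ3βG, where 34.8% of all genes were. One was acw-7 (NCU09133) beside tba-1, with a log2 ratio of 1.61 against -0.07 for tba-1. The other was NCU04174 beside act, at -1.02 against 0.38 for act. Beside tef-1, NCU02004 stood at -0.69, and beside pma-1, NCU01679 stood at -0.70. In that annotation tba-1 overlaps NCU09131 and pma-1 overlaps NCU01681. Those partners had at most 147 and 4 reads in a library, a small part of the count of tba-1 or pma-1. Reads that fall on both genes of an overlap may instead be among the ambiguous reads, which name no gene. These were 0.895% of the file in Δ3βGΔcdt2Δclp1, 0.897% in Δ3βGΔclp1 and 0.844% in Δ3βG. How many of them lie in these overlaps is not known, so the effect of the overlaps was not tested.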

How the data were processed

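RNA sequencing libraries of 3 strains were used, 1 per strain, grouped by the strain named in the labels. The deposited read counts per gene were made by the authors with TopHat and HTSeq, per the submitters' processing notes. Software versions, strandedness, annotation and build were not given in the sources used here. RPKM as deposited by the authors (reads divided by exon kilobases and by depth) could be recomputed from counts, exon lengths (in bases, per the file headers) and the sum of every line of the file to within 1.93e-08 of the value. Reads naming no gene (8.53% of the file in Δ3βGΔcdt2Δclp1, 14.2% in Δ3βGΔclp1 and 16.8% in Δ3βG) were left out of library sizes. Symbols came from the RefSeq table of NC12, which was used for names and gene order only.

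Counts were scaled with TMM factors of edgeR 4.0.16 in R 4.3.3 (0.833 in Δ3βGΔcdt2Δclp1, 1.09 in Δ3βGΔclp1 and 1.10 in Δ3βG). Other scalings were library totals, all reads in the file, upper quartile, the median of ratios of DESeq2 1.42.0, totals without eas or the 50 genes with most counts, and the 6 genes alone or as a geometric mean. Log2 ratios used to count genes had a prior of 0.5 counts, and printed folds had none. Intervals were exact at 95% (Clopper-Pearson on the summed counts; Fisher's conditional interval, solved on the log scale, for a change of a ratio of genes; Poisson for a level). PCR reads are not independent molecules, so all cover counting error only. Genes were called at 2-fold with a mean of at least 10 CPM, without the 5 deleted genes, and no test across replicates was possible.

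All 6 genes, and list members at least 2-fold apart, are named by rule. A few further list members, the 12 neighbours and the abundance limit of 300 CPM were chosen after values were seen. A further list, of polarity genes, is not reported here. The genes and lists were chosen with earlier results of these data known.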

Additional observations from a re-analysis of the deposited data

How the results depend on the processing

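No paired analysis was possible because each strain has 1 library. No replicate could be left out for the same reason. Of 378 recomputed log2 ratios of the 6 genes, 154 stayed within the counting interval of the TMM value and 224 moved outside it. This split depends on the settings chosen, since some settings coincide and a gene used as its own standard is fixed at 0. None of the ratios at least 2-fold apart under TMM turned sign. Of the smaller ones 32 turned, 23 of them with the 6 genes alone or their geometric mean as the standard, and 9 (all of act) under other settings. With a single standard 4 of these were past 2-fold on the other side. In Δ3βGΔcdt2Δclp1 against Δ3βG they were act at -1.11 with tef-1 (0.38 under TMM), and Bml at 1.16 (-0.54) and tba-1 at 1.63 (-0.07) with pma-1. In Δ3βGΔcdt2Δclp1 against Δ3βGΔclp1 it was tba-1 at 1.30 with pma-1 (-0.24). Counts of pairs stayed at 9, 0 and 7 under all scalings, since a scaling cancels in a ratio of genes.

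In Δ3βGΔcdt2Δclp1 against Δ3βG, counts of genes at least 2-fold higher (1267 under TMM) moved by over 1.5 times to 697 on totals without eas, 2125 with Bml, 2755 with tba-2, 364 with tef-1, 4998 with pma-1, 1986 with no filter, 472 from 100 CPM and 130 from 300 CPM. Lower genes (1008) moved to 1765 on library totals, 1713 without the 50 top genes with or without eas, 2515 without eas, 1716 with act, 494 with Bml, 348 with tba-2, 4467 with tef-1, 168 with pma-1, 1607 with no filter, 326 from 100 CPM and 111 from 300 CPM. Of the 6 genes, 2 were apart under TMM, 5 with tef-1 (73.8% of all genes) and 4 with pma-1 (78.9%), where the standard itself could not be apart.

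In Δ3βGΔclp1 against Δ3βG, higher genes (37) moved to 17 with tef-1, 75 with pma-1, 342 with no filter, 115 from 1 CPM, 15 from 100 CPM and 9 from 300 CPM. Lower genes (44) moved to 73 with Bml, 78 with tba-1, 149 with tef-1, 23 with pma-1, 293 with no filter, 99 from 1 CPM, 9 from 100 CPM and 3 from 300 CPM.

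In Δ3βGΔcdt2Δclp1 against Δ3βGΔclp1, higher genes (1082) moved to 556 on totals without eas, 2199 with Bml, 2468 with tba-2, 388 with tef-1, 4813 with pma-1, 1750 with no filter, 419 from 100 CPM and 120 from 300 CPM. Lower genes (782) moved to 1541 on library totals, 1300 on all reads in the file, 1308 on the deposited RPKM, 1571 without the 50 top genes with or without eas, 2455 without eas, 501 with the geometric mean of the 6, 1287 with act, 318 with Bml, 282 with tba-2, 3778 with tef-1, 154 with pma-1, 1315 with no filter, 259 from 100 CPM and 92 from 300 CPM. Of the 6 genes, 2 were apart under TMM, 1 with Bml (38.5% of all genes) and 4 with tef-1 (63.7%), where the standard itself could not be apart. Counts from a CPM limit differ by construction, as fewer or more genes enter and TMM was refitted on them, and the limit of 300 CPM was chosen after seeing the data. Prior counts of 0 and 5 moved none of these counts by over 1.5 times. At 2043 reads or more per gene and library, counting limits the 6 genes little, and the spread between cultures is unknown.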

Other observations

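Subunits of the vacuolar proton pump, which acidifies the vacuole, fell into its structural sectors by their log2 ratios in Δ3βGΔcdt2Δclp1 against Δ3βG. This split was made after the values were seen and is a description without a test. The 8 genes of the peripheral V1 sector that hydrolyses ATP (vma-1, vma-2, vma-4, vma-5, vma-7, vma-8, vma-10 and vma-13) all had ratios above 0 under TMM, between 0.21 and 1.22, with a median of 0.88. The 6 genes of the membrane sector Vo (vma-3, vma-6, vma-9, vma-11, vma-16 and vph-1) all had ratios below 0, between -0.72 and -0.05, with a median of -0.38. A change of scaling shifts all these ratios alike, so it leaves the distance between the sectors as it is and moves only the place of 0. Under TMM the median of all genes was -0.03. On library totals 1 V1 gene lay below 0, and on totals without eas 3 did. In Δ3βGΔcdt2Δclp1 against Δ3βGΔclp1, all 8 V1 genes lay above 0 and all 6 Vo genes below it under TMM. On totals without eas 5 of the 8 V1 genes lay below 0 in that comparison. vma-1 had 4700 reads in Δ3βGΔcdt2Δclp1, 3882 in Δ3βGΔclp1 and 2903 in Δ3βG, and vma-16 had 631, 1139 and 1207. In Δ3βGΔclp1 against Δ3βG the V1 genes lay between 0.09 and 0.31 and the Vo genes between -0.21 and 0.23, and the sectors overlapped.

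The share of reads counted as falling on no feature was 5.16% in Δ3βGΔcdt2Δclp1, 8.41% in Δ3βGΔclp1 and 9.64% in Δ3βG. Reads with several alignments made up 2.48%, 4.91% and 6.36%. Their part in the ratios of the 6 genes was not tested, and no ratio between genes of the same library depends on them through the scaling.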
